A study of Mus musculus with 10 samples.

Results

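The genes of 10 integrin subunits were followed, of 33347 mouse genes measured. They were chosen by name for 2 roles, binding of the extracellular matrix and activation of TGF-beta: Itgav, Itgb1, Itgb5, Itgb6, Itgb8, Itga1, Itga3, Itga5, Itga8 and Itga11. RNA came from lungs of wild-type mice with fibrosis induced by bleomycin, which breaks DNA and damages the alveoli. All of the mice had also been injected with marrow cells of a stated activity of aldehyde dehydrogenase (ALDH), an enzyme family that detoxifies aldehydes. In 5 samples the injected cells had high ALDH activity (ALDHbr), and in 5 they had low activity (ALDHdim). The sources used here do not give the time after injury or the age and sex of the mice. Uninjured lungs and lungs without injected cells were not analysed here, and differences are therefore between the transfer groups alone. The labels number the samples but name no animals, and p-values rest on the spread between samples, which may be technical.

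Integrins are cell surface receptors built from an alpha and a beta subunit, and they tie the actin skeleton to the matrix outside the cell. Itgb1 pairs with many alpha subunits, among them Itga1 and Itga11 (collagens), Itga3 (laminins), Itga5 (fibronectin) and Itga8 (nephronectin and fibronectin). Itgav pairs with Itgb5, a vitronectin receptor, and with Itgb6 and Itgb8, whose dimers bind the propeptide that holds TGF-beta inactive. In the lung, Itgb6 is known as an epithelial subunit that increases in injury, and the activation of TGF-beta by its dimer is a known step of bleomycin fibrosis in mice.

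The genes lie on 8 chromosomes of the mouse build GRCm38, and all are protein-coding. Itgav lies on chromosome 2 from 83724397 to 83806916, Itgb6 on chromosome 2 from 60598292 to 60722643 and Itga8 on chromosome 2 from 12106632 to 12301922. Itgb1 spans 128685654 to 128733200 on chromosome 8, Itgb5 33829665 to 33949338 on chromosome 16 and Itgb8 119158022 to 119238802 on chromosome 12. Among the other alpha subunits, Itga1 spans 114953096 to 115101964 on chromosome 13, Itga3 95044474 to 95076801 on chromosome 11, Itga5 103344286 to 103366763 on chromosome 15 and Itga11 62677826 to 62783982 on chromosome 9. These are whole-gene positions, and reads were counted per gene. Among the overlapping genes that were analysed, none had more than 31 counts over all libraries (E030013I19Rik, on the opposite strand of Itga8, against 1146 counts of Itga8), and an overlapping gene each of Itgav and Itga5 was not analysed here.

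Libraries were read from the 3' end of the RNA, so longer transcripts do not give more counts, and levels are given as TMM-scaled CPM (counts relative to a common library total) that were not divided by length. Totals ran from 588063 to 2002947 counts per library. Every pair of libraries differed by more than the sampling noise of independent counts (chi-square over its degrees of freedom at least 2.21). Copies made by PCR, if not collapsed, would raise that value as well. At an equal depth of 588063 counts, the ALDHbr libraries 3 and 5 detected 22833 and 21580 genes, against at most 18125 in any other library. Lung markers were present in each library, with alveolar type 2 markers at a summed 21731 to 50643 CPM and alveolar type 1 markers at 3701 to 6498 CPM. Summed levels of 11 cell type marker lists overlapped between the groups. In bulk tissue, fewer cells of a type and less RNA per cell cannot be told apart.

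None of the 10 members separated the transfer groups. Of the 8 that passed the low-count filter, 0 passed the threshold of an adjusted p of 0.05 (edgeR's quasi-likelihood test with Benjamini-Hochberg adjustment, adjusted p = 0.99925 for each), against 0% of all 10844 tested genes. At an unadjusted p under 0.05 there were 0 members as well, against 3.71% of all tested genes. The CPM ranges of the groups overlapped for all 10 members, and they failed to overlap for 0.535% of tested genes. Estimates were lower in ALDHbr for 6 of the 8 tested members (75%, against 48.1% of all tested genes) and higher for 2, with a median log2 fold change of −0.11 beside 0.01 over all tested genes. That median was −0.24 without the library ALDHbr 1 and −0.0037 without ALDHbr 3. The 95% interval of the fold change lay within 2-fold in either direction for all 8 tested members, as it did for 90.5% of tested genes, and within 1.5-fold for 5 of the 8.

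**Figure D1:**
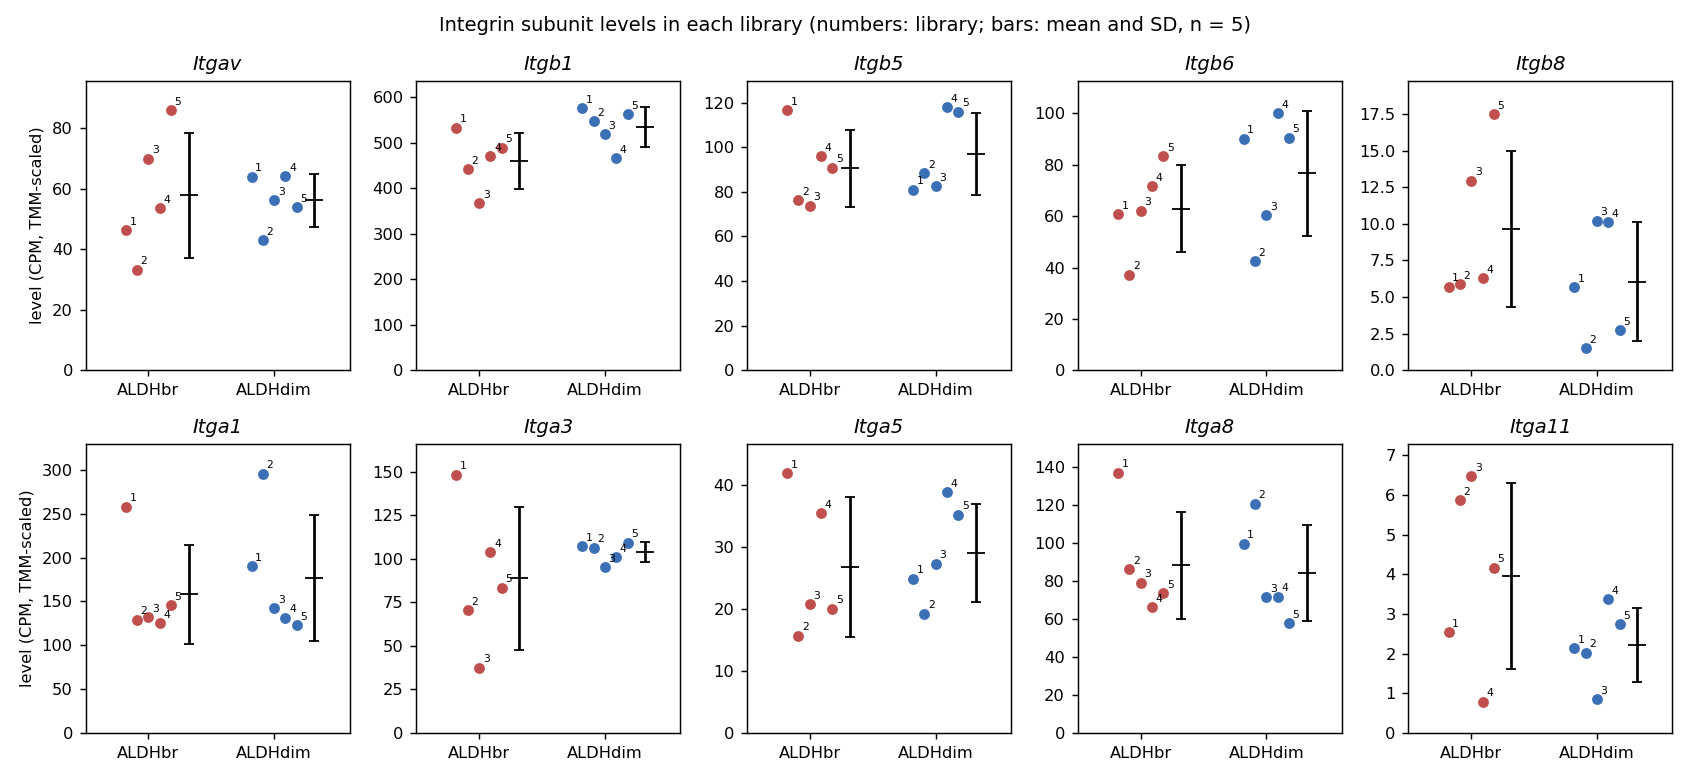
Level of each of the 10 integrin subunit genes in CPM (linear axis from 0), with a point for each library numbered by its label, and the mean and SD of each group (n = 5). Each gene's groups overlap, and the spread within a group is often set by 1 or 2 libraries, such as ALDHbr 1 and ALDHdim 2 for Itga1.

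Itgb1, the common beta subunit of matrix receptors, was at 533, 442, 367, 470 and 489 CPM in ALDHbr libraries 1 to 5. In ALDHdim libraries 1 to 5 it was at 576, 547, 519, 466 and 563 CPM. The ALDHdim libraries varied least, and 3 of them lay above every ALDHbr library, while ALDHdim 4 lay below 3 of the ALDHbr libraries. Group means were 460 ± 61.5 and 534 ± 43.7 CPM (SD, n = 5 each), and the log2 fold change was −0.21 (SE 0.13, unadjusted p = 0.13, edgeR). The 95% interval of the fold, 0.71 to 1.05, was the narrowest of the tested members. Without ALDHbr 1 the log2 fold change was −0.27 (unadjusted p = 0.043, adjusted p = 0.46, edgeR). In that fit 1141 of 11024 tested genes had an unadjusted p under 0.05.

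Among partners of Itgav, Itgb6, the epithelial subunit of the TGF-beta activating dimer, was at 60.8, 37.2, 62.1, 71.6 and 83.3 CPM in ALDHbr and at 90.2, 42.4, 60.4, 100.2 and 90.6 CPM in ALDHdim. In both groups library 2 was the lowest, and ALDHdim 1, 4 and 5 were above every ALDHbr library. Its means were 63.0 ± 17.0 and 76.8 ± 24.4 CPM (SD, n = 5 each), and the log2 fold change was −0.24 (SE 0.23), the lowest estimate of the 8. Without ALDHdim 2 the estimate was −0.40 (unadjusted p = 0.051, edgeR). Itgav itself was at 46.2, 33.3, 69.9, 53.5 and 85.8 CPM in ALDHbr and at 63.9, 42.9, 56.1, 64.0 and 53.8 CPM in ALDHdim. The ALDHbr libraries held both the lowest and the highest value, a 2.58-fold range against 1.49-fold within ALDHdim. The log2 fold change of Itgav was 0.07 (SE 0.20), and it was −0.12 without ALDHbr 5, −0.01 without ALDHdim 2 and −0.28 without both ALDHbr 3 and ALDHbr 5. These omissions take out the highest ALDHbr values or the lowest ALDHdim value of Itgav, and so lower its estimate by construction.

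Itgb5, the vitronectin receptor subunit, was at 117, 76.3, 73.7, 96.0 and 90.8 CPM in ALDHbr and at 80.9, 88.3, 82.5, 118 and 116 CPM in ALDHdim. ALDHbr 1, ALDHdim 4 and ALDHdim 5 were alike at the top. The log2 fold change was −0.08 (SE 0.16), with an interval of 0.75 to 1.19 as a fold. Itgb8, the other TGF-beta activating beta subunit, did not pass the filter and had 3 to 21 counts per library. Its level was 5.70, 5.87, 12.9, 6.29 and 17.5 CPM in ALDHbr and 5.68, 1.51, 10.2, 10.1 and 2.75 CPM in ALDHdim. The high ALDHbr values were those of libraries 3 and 5, which also detected the most genes. Means were 9.66 ± 5.33 and 6.05 ± 4.04 CPM (SD, n = 5 each, exact two-sided permutation p = 0.28), a difference of 3.61 CPM. It was −0.096 CPM without both of those libraries, an omission added after seeing the data that takes out the highest ALDHbr values and so lowers the difference by construction.

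The collagen receptor Itga1 was at 258, 129, 132, 125 and 146 CPM in ALDHbr and at 190, 296, 142, 131 and 123 CPM in ALDHdim. ALDHbr 1 and ALDHdim 2 stood above the rest, with ALDHdim 1 next, and the other 7 libraries lay between 123 and 146 CPM. Its log2 fold change was −0.15 (SE 0.27), with a sign that turned to 0.13 without ALDHdim 2. Itga11, the other collagen-binding alpha subunit and a marker of activated fibroblasts, had 1 to 5 counts per library and 35 in all. A library with 1 count, such as ALDHbr 4, has a 95% exact binomial interval of 0.020 to 4.42 CPM (of all its counts), and ALDHbr 3, with 5 counts, has an interval of 1.90 to 13.7 CPM. Mean levels were 3.96 ± 2.35 CPM in ALDHbr and 2.22 ± 0.94 CPM in ALDHdim (SD, n = 5 each, exact two-sided permutation p = 0.17). These counts are few, and the difference did not pass the test, although p was 0.048 without ALDHbr 4 (exact two-sided permutation). ALDHbr 4 has the lowest ALDHbr value, so leaving it out raises the difference by construction. With any other library left out, p was 0.14 to 0.35 in the same test. Without both ALDHbr 3 and ALDHbr 5, which detected the most genes, the difference was 0.84 CPM (exact two-sided permutation p = 0.57). That omission was added after seeing the data and takes out the highest ALDHbr value. The binomial intervals cover counting error only, since copies made by PCR may be among the counts.

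Itga8, found on alveolar fibroblasts and smooth muscle, was at 137, 86.1, 78.9, 66.1 and 73.3 CPM in ALDHbr and at 99.4, 121, 71.4, 71.6 and 57.7 CPM in ALDHdim. Its highest libraries were the same as those of Itga1. The log2 fold change was 0.08 (SE 0.23), and it was −0.17 without ALDHbr 1 and −0.04 without ALDHdim 5. Itga3, the laminin receptor subunit, was at 148, 70.4, 37.5, 104 and 83.3 CPM in ALDHbr and at 107, 106, 95.3, 101 and 109 CPM in ALDHdim. All ALDHdim values fell within a 1.15-fold range, while the ALDHbr values spanned 3.95-fold, the widest range within a group among the tested members. The log2 fold change was −0.18 (SE 0.25), with a value of 0.00096 without ALDHbr 3 and of −0.46 without ALDHbr 1 (unadjusted p = 0.036, adjusted p = 0.44, edgeR). In the fit without ALDHbr 1, 1141 of 11024 tested genes had an unadjusted p under 0.05, against 402 of 10844 in the main fit.

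Fibronectin's receptor subunit Itga5 was at 41.8, 15.6, 20.7, 35.4 and 19.99 CPM in ALDHbr and at 24.8, 19.2, 27.2, 38.7 and 35.2 CPM in ALDHdim. The highest and the lowest library were both in the ALDHbr group. Its log2 fold change was −0.02 (SE 0.26), and it was above 0, at 0.06 to 0.09, when ALDHbr 2, ALDHbr 3, ALDHbr 5, ALDHdim 4 or ALDHdim 5 was left out. The median biological coefficient of variation of the 8 tested members in the edgeR fit was 24.5%, beside a median of 17.0% over all tested genes. Itga1 had the highest at 29.7%, while Itgb1 and Itgb5, at 16.8% and 16.9%, were below the median of all tested genes.

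**Figure D2:**
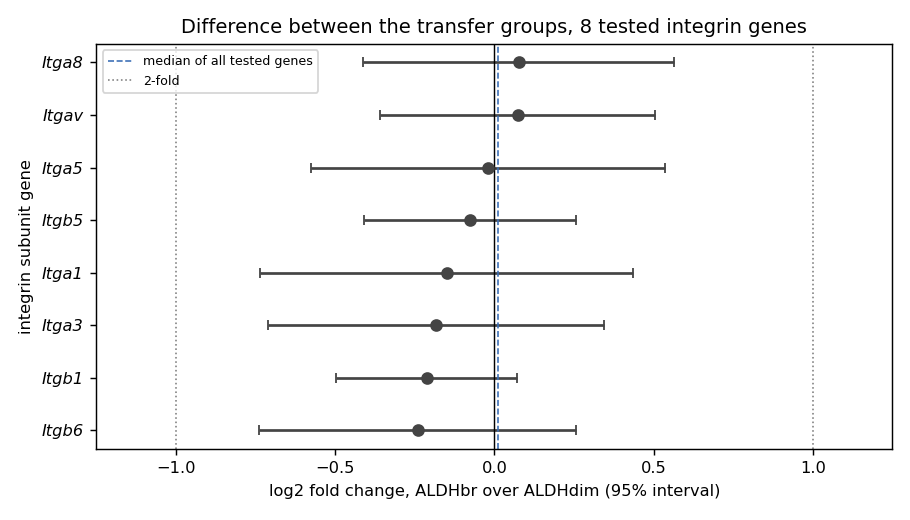
Log2 fold change of ALDHbr over ALDHdim (horizontal axis) for the 8 tested integrin genes, with points for the estimates and bars for the 95% intervals. All 8 intervals include 0 and lie inside the dotted lines at 2-fold, and the dashed line marks the median of all tested genes at 0.01.

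The same libraries were high or low for several members, and such libraries were found in both groups. Of the 28 pairs of tested members, 19 had a positive correlation of log2 CPM over the 10 libraries, with a median r of 0.23. The closest pair was Itga1 and Itga8 (r = 0.912, permutation p = 0.0012, adjusted over the 28 pairs 0.033; Spearman's rho = 0.806, permutation p = 0.0075, adjusted 0.11). Both were highest in ALDHbr 1 and ALDHdim 2, and r was 0.747 without these 2 libraries and 0.943 within the groups. The ratio of Itga1 to Itga8 counts stayed between 1.5 and 2.45 in all libraries.

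Itgb1 and Itga3, the subunits of a laminin receptor, followed with r = 0.856 (permutation p = 0.0039, adjusted 0.037; rho = 0.818, permutation p = 0.0059, adjusted 0.11). Both were lowest in ALDHbr 3, and r was 0.639 without ALDHbr 3 and ALDHdim 1, and 0.855 within the groups. Itgb5 and Itga5 had r = 0.835 (permutation p = 0.004, adjusted 0.037; rho = 0.758, permutation p = 0.015, adjusted 0.14), with r = 0.703 without ALDHbr 1 and ALDHdim 4 and 0.828 within the groups. These genes encode subunits that do not form a dimer with each other. Itgav and its partner Itgb6 had r = 0.754 (permutation p = 0.011, adjusted 0.075; rho = 0.636, permutation p = 0.055, adjusted 0.38), with r = 0.611 without ALDHbr 2 and ALDHbr 5 and 0.781 within the groups. Itgb6 and Itga8 lay at the other end, with r = −0.47, and no pair passed after adjustment of rho. All genes of a library share its sequencing depth and its composition, which differ between the 10 libraries, and these coefficients are descriptions of these samples.

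**Figure D3:**
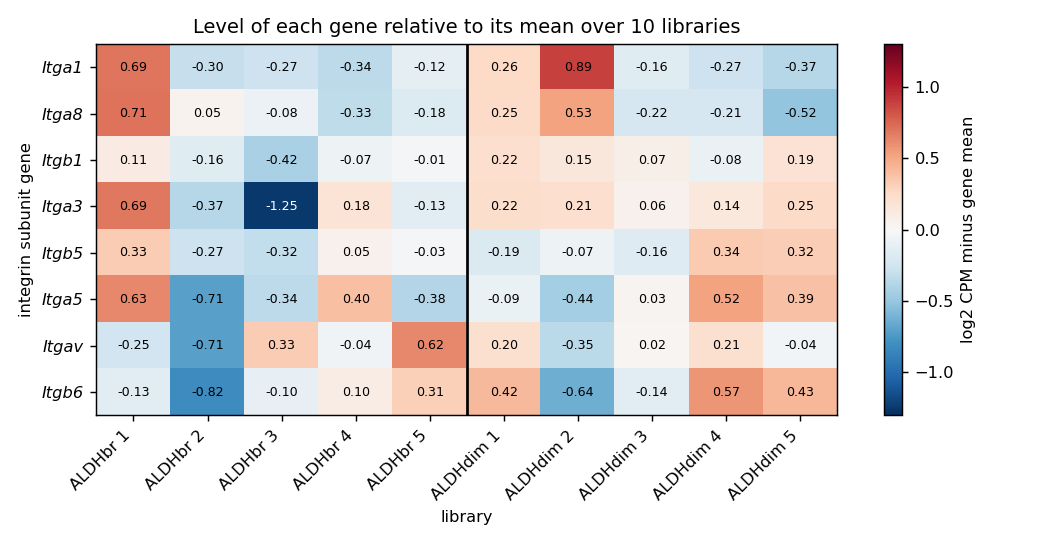
Level of the 8 tested integrin genes (rows) in each library (columns, ALDHbr left of the line), as log2 CPM minus the gene's mean over 10 libraries. Itga1 and Itga8 are high in ALDHbr 1 and ALDHdim 2, Itgav and Itgb6 are low in ALDHbr 2 and ALDHdim 2, and Itga3 and Itgb1 are lowest in ALDHbr 3.

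**Figure D4:**
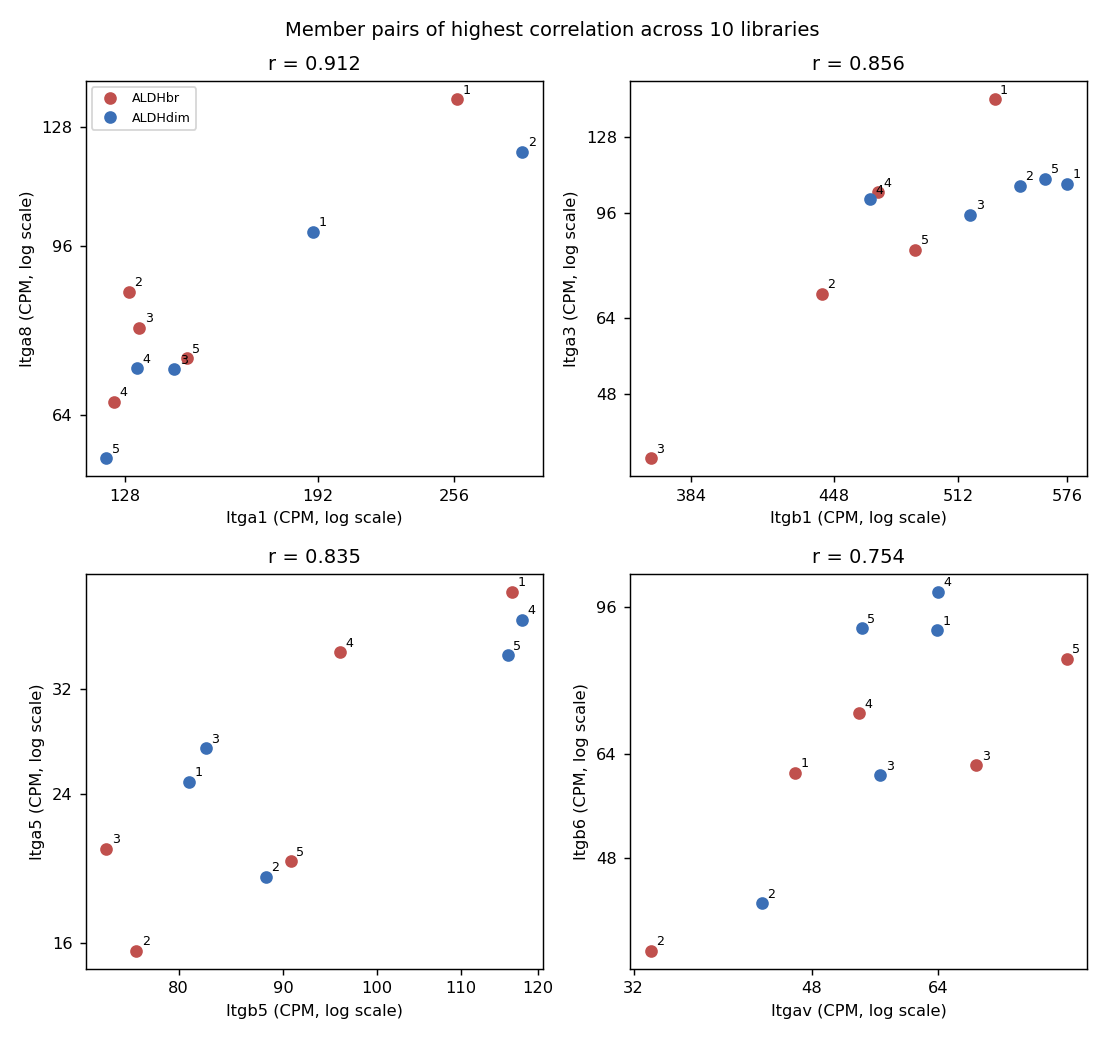
CPM of 4 pairs of integrin genes in the 10 libraries (log axes, points numbered by library and coloured by group), each panel with its Pearson r of log2 CPM. The points of both groups are interspersed in each panel, with r from Itga1 with Itga8 (0.912) to Itgav with Itgb6 (0.754).

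The bases upstream of Itga1 and Itga8, the pair with the highest r, and of Itgav and Itgb6, the subunits of the TGF-beta activating dimer, whose correlation did not pass after adjustment, are shown from RefSeq on GRCm38.p6, which held a promoter for all 10 members. Capitals mark a match to the SMAD motif CAGAC, which SMAD proteins downstream of TGF-beta can bind, on either strand. Itga1 is given at chr13:115101965-115102214 (minus strand), Itga8 at chr2:12301945-12302194 (minus), Itgav at chr2:83724147-83724396 (plus) and Itgb6 at chr2:60722644-60722853 (minus).
Itga1: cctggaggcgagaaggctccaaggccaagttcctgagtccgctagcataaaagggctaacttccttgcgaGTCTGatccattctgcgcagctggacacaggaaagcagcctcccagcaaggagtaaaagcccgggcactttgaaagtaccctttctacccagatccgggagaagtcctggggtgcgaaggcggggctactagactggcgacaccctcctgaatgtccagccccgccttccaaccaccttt
Itga8: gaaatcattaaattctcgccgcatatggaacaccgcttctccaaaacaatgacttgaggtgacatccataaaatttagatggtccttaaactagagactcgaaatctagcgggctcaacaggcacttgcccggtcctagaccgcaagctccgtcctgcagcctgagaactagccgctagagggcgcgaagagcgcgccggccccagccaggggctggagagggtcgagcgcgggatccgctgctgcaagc
Itgav: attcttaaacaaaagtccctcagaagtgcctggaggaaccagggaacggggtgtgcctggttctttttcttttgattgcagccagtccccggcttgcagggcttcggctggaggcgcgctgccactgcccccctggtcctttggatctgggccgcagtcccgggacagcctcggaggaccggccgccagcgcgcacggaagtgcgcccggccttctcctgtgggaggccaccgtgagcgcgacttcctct
Itgb6: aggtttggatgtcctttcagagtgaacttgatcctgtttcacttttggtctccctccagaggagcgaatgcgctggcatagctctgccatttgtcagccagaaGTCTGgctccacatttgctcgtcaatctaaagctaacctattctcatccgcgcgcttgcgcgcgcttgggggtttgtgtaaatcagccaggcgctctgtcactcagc
Windows of 250 bases for Itga1, Itga8 and Itgav end at the base before the RefSeq start, which for Itga8 lies upstream of the gene's bounds given above. The window of Itgb6 has 210 bases and ends 40 bases before the RefSeq start, at the edge of those bounds. The SMAD motif occurred once upstream of Itga1 and once upstream of Itgb6, and in 42.2% of all 32851 promoters over 250 bases and 37.2% over 210 bases. AP-1 (TGANTCA), the GC box (GGGCGG), the TATA box (TATAAA) and the CArG box, searched on both strands, had 0 matches in the 4 windows, beside 6.75%, 32.7%, 12.4% and 1.47% of all promoters over 250 bases. These matches describe letters in the windows and not binding.

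Integrin levels also moved with the summed markers of lung cell types, compared as log2 values in 88 relations of 8 members with 11 marker lists. No relation passed after adjustment of rho, where the lowest adjusted permutation p was 0.21. Itgb6 was high where the transitional alveolar markers (6 genes, among them Krt8 and Cldn4) were high, with r = 0.813 (permutation p = 0.0044, adjusted over the 88 relations 0.051; rho = 0.77, permutation p = 0.012, adjusted 0.21). It was low where the alveolar type 1 markers were high (r = −0.861, permutation p = 0.0012, adjusted 0.045; rho = −0.806, permutation p = 0.0071, adjusted 0.21). Without the 2 libraries farthest from the median of the markers, r was 0.721 and −0.743, and within the groups 0.827 and −0.848. The relation was of like size with airway epithelium markers (r = −0.825, permutation p = 0.0033, adjusted 0.051; rho = −0.758, permutation p = 0.015, adjusted 0.21; −0.481 without ALDHbr 2 and ALDHdim 2, −0.873 within the groups). With alveolar type 2 markers r was −0.808 (permutation p = 0.0046, adjusted 0.051; rho = −0.782, permutation p = 0.01, adjusted 0.21; −0.646 without ALDHbr 2 and ALDHdim 5, −0.818 within the groups). Transitional markers summed to 790 to 1271 CPM in ALDHbr and 730 to 1505 CPM in ALDHdim, and all 6 were detected in every library. Lgals3 gave the most to that sum, with a mean of 524 CPM over all libraries. Krt8 averaged 151 CPM and Cldn4 13.1 CPM, so the sum says little about Cldn4.

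Itga1 moved with the endothelial markers, 6 genes among them Pecam1 and Cdh5 (r = 0.907, permutation p = 0.00096, adjusted 0.045; rho = 0.685, permutation p = 0.035, adjusted 0.27). Itga8 did likewise (r = 0.858, permutation p = 0.0025, adjusted 0.051; rho = 0.624, permutation p = 0.06, adjusted 0.28). Without ALDHbr 1 and ALDHdim 2 these were 0.734 and 0.592, and within the groups 0.905 and 0.886. Endothelial markers summed to 805 to 1942 CPM in ALDHbr and 875 to 2011 CPM in ALDHdim, with all 6 detected in every library. By rank, Itga8 was most closely related to the transitional alveolar markers, where it was low when they were high. That rho was −0.818, the largest in size of the 88 (permutation p = 0.0058, adjusted 0.21), with r = −0.749 (permutation p = 0.014, adjusted 0.11). Its r was −0.553 without ALDHdim 2 and ALDHdim 5 and −0.747 within the groups.

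Itga3 moved with smooth muscle and myofibroblast markers (r = 0.849, permutation p = 0.0037, adjusted 0.051; rho = 0.564, permutation p = 0.095, adjusted 0.31; 0.833 within the groups). That relation rested on ALDHbr 1 and ALDHbr 3, without which r was 0.279. Itgav was low where the fibroblast markers were high in sum (r = −0.849, permutation p = 0.0015, adjusted 0.045; rho = −0.758, permutation p = 0.015, adjusted 0.21; −0.764 without ALDHbr 1 and ALDHbr 2, −0.86 within the groups). Inmt made up most of the fibroblast sum in ALDHbr 2 (3959 of 5410 CPM) and ALDHdim 2 (3477 of 5107 CPM), the libraries with the lowest Itgav. Other genes of that list differed there, with Col1a1 low (147 and 168 CPM) and Tcf21 not (121 and 165 CPM). With the mean of the markers' log2 levels in place of their sum, the r of Itgav was −0.18. For Itgb6 this mean gave 0.784 with transitional, −0.855 with type 1, −0.728 with type 2 and −0.606 with airway markers. Endothelial markers gave 0.902 with Itga1 and 0.843 with Itga8, and smooth muscle markers 0.86 with Itga3. Other relations rose, such as Itgb6 with macrophage markers (0.803, against 0.342 for the sum) and Itga3 with fibroblast markers (0.914, against 0.475). The part of cell composition in the levels of the members was not tested.

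**Figure D5:**
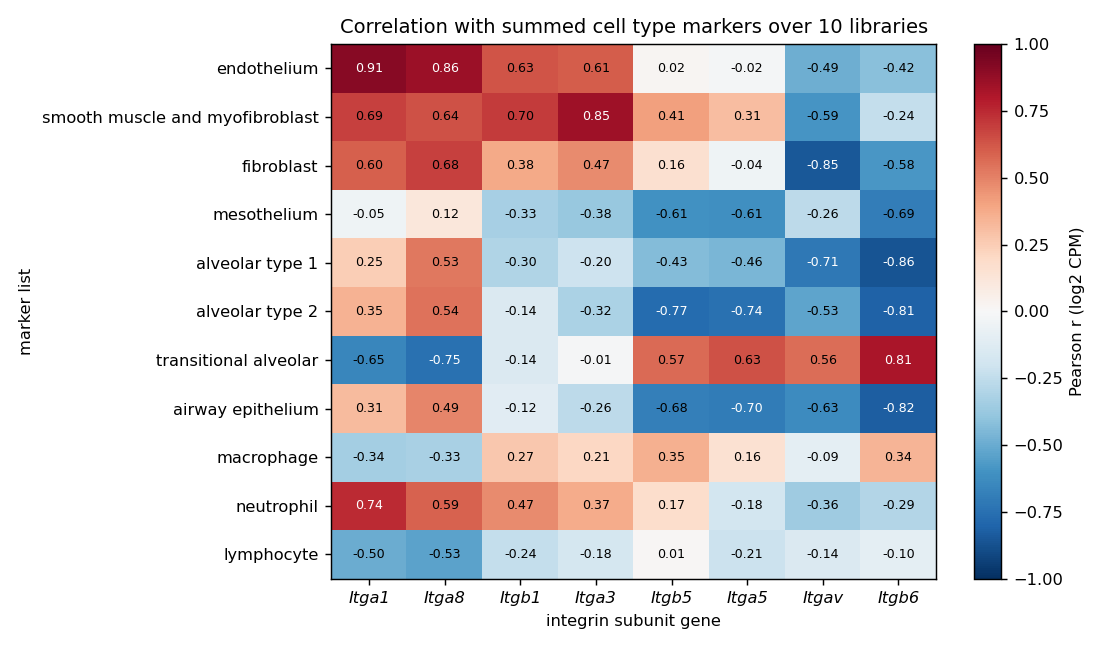
Pearson r over 10 libraries between log2 CPM of each tested integrin gene (columns) and the log2 summed CPM of each cell type marker list (rows). Itga1 and Itga8 have their highest values with endothelium (0.91 and 0.86), and Itgb6 has 0.81 with transitional alveolar markers and −0.86, −0.83 and −0.81 with alveolar type 1, airway and alveolar type 2 markers.

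Genes whose levels were most like those of each member were listed by Pearson r of log2 CPM among all tested genes over the 10 libraries. Itgav was followed most closely by Rfx7 (0.988), Sfmbt1 (0.957) and Tgfbr1 (0.956), the type I receptor of TGF-beta. For Itgb6 they were Ext1 (0.963), Tuba1c (0.96) and Ctsc (0.95), and for Itgb1 Nbeal2 (0.953), Ap3m1 (0.946) and Armc5 (0.943). Itgb5 was closest to Sparcl1 (0.97), Pkm (0.94) and Nol6 (0.923). Among the alpha subunits, Itga1 was closest to Abi3bp (0.943), Dach1 (0.941) and Mapk8ip3 (0.935), and Itga8 to Fhl1 (0.948), Reck (0.936) and Stard13 (0.929). Itga3 was closest to Vps16 (0.98), Tgm2 (0.977), a transglutaminase that crosslinks matrix proteins, and Fgd5 (0.968). For Itga5 they were Inf2 (0.957), Lgals3bp (0.955) and C1ra (0.955). These are the highest of 10843 coefficients for each member and are given without a test.

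Of 17 other integrin subunits measured, 13 were tested, with 11 lower and 2 higher estimates (48.1% of all tested genes were lower). Their median log2 fold change was −0.16, with 0 past the threshold. Itgb2, the common leukocyte beta subunit, averaged 104 ± 31.7 CPM in the ALDHbr group against 116 ± 46.6 CPM in the ALDHdim group. Itga6, a laminin receptor subunit, was at 93.9 ± 29.3 and 103 ± 12.4 CPM, Itga9 at 50.9 ± 15.7 and 58.7 ± 10.4 CPM and Itgax, found on alveolar macrophages and dendritic cells, at 38.4 ± 14.5 and 58.9 ± 27.4 CPM (SD, n = 5 each). Itgb3, a further partner of Itgav that is known from platelets and endothelium, was singled out after its values were seen. It was the 1 subunit of these 13 at an unadjusted p under 0.05, against 3.71% of all tested genes. In edgeR's quasi-likelihood test it had an unadjusted p of 0.017 and an adjusted p of 0.99925. Its level was 7.28 ± 5.07 CPM in the ALDHbr group against 15.4 ± 3.33 CPM in the other, a log2 fold change of −0.89 (SE 0.34). Itgb3 was at 15.2 CPM in ALDHbr 1 and 1.96 to 7.87 CPM in the other ALDHbr libraries, against 11.1 to 19.2 CPM in ALDHdim. The low values rest on few counts, since ALDHbr 2, at 1.96 CPM, had 588063 counts in total.

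Adaptors that link integrins to actin had 12 lower and 6 higher estimates among 18 tested (median −0.12), with 0 past the threshold, beside 48.1% lower among all tested genes. At an unadjusted p under 0.05 there was 1, Src (log2 fold change −0.39, SE 0.17, unadjusted p = 0.035, edgeR), against 3.71% of all tested genes. Tns1, a tensin, averaged 416 ± 224 CPM (ALDHbr) against 441 ± 137 CPM (ALDHdim), and the actin crosslinkers Actn4 and Actn1 were at 208 ± 41.5 against 241 ± 6.48 CPM and 202 ± 55.0 against 238 ± 57.4 CPM. Lims1, a scaffold of adhesion sites, was at 219 ± 21.7 and 211 ± 10.2 CPM. Extracellular ligands had 16 lower and 2 higher estimates among 18 tested (median −0.30), with 0 past the threshold, beside the same 48.1%. Here too there was 1 at an unadjusted p under 0.05, the laminin gene Lamb3 (log2 fold change −0.56, SE 0.22, unadjusted p = 0.022, edgeR). Spp1 (osteopontin) differed by −0.35 (SE 0.85), Col3a1 by −0.30 (SE 0.50), Col1a2 by −0.39 (SE 0.42) and Col1a1 by −0.57 (SE 0.58). These ligands were all low in ALDHbr 2 and ALDHdim 2, so the count of lower estimates does not stand for separate observations. 

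On the side of TGF-beta, 11 genes of the latent complex and its storage were all tested, with 6 lower and 5 higher estimates, a median of −0.0071 and 0 past the threshold. Tgfb2 averaged 64.2 ± 17.7 CPM (ALDHbr) against 81.3 ± 4.18 CPM (ALDHdim) (log2 fold change −0.30, SE 0.16). Furin, the protease that cleaves the TGF-beta precursor, differed by −0.22 (SE 0.16), the latent TGF-beta binding protein Ltbp4 by −0.18 (SE 0.51) and fibrillin Fbn1 by −0.0071 (SE 0.53). Receptors and responsive genes had 7 higher and 5 lower estimates among 12 tested (median 0.05), with 0 past the threshold. Tgfbr2 differed by −0.16 (SE 0.18), the co-receptor Eng by −0.14 (SE 0.39), and the TGF-beta responsive genes Ccn2 and Tgfbi by 0.0023 (SE 0.20) and −0.36 (SE 0.24).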

How the data were processed

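Bulk RNA of 10 lung samples (5 ALDHbr, 5 ALDHdim, grouped by their titles) was made into BRB-seq libraries, per the labels' protocols, a 3' method with a sample barcode and a molecular identifier. Per the submitters' processing notes, the tools were featureCounts 2.0.1, HISAT2 2.2.1, DESeq2, Trim Galore 0.6.7 and UMI-tools, with the builds GRCm38 and GRCh38, all without roles. The table the authors deposited holds unnormalized whole-number counts for each gene. Collapsing of molecules, use of strand and the annotation: not given in the sources used here, and uncollapsed PCR copies would add counts without molecules. All 33347 gene identifiers were found in GENCODE mouse release 21 on GRCm38, which gave the positions.

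From these counts, genes were kept by filterByExpr (minimum count 10), which left 10844 genes with 97.3% of counts. After TMM scaling they entered edgeR 4.0.16 in R 4.3.3 (glmQLFit, robust, then glmQLFTest), with the group alone in the model and adjustment over all tested genes. The test was run on simulated counts with set fold changes before use, and the share it recovered is not given here. Members below the filter were compared by an exact permutation test over 252 assignments, whose smallest p is 0.0079. Correlations used log2 CPM (prior count 2), with 100000 permutations. Alternatives were other scalings and filters, DESeq2 1.42.0, limma 3.58.1 (weighted voom), a block for the replicate number, removal of abundant blood and mitochondrial genes, and omission of libraries. Of each context list the 4 tested genes of highest mean CPM are named. The members and lists were chosen with earlier results of these data known. A list entry absent from the table used is not analysed here.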

Additional observations from a re-analysis of the deposited data

Results flagged for a closer look

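Of 60 sets of 5 values (members and named context genes within a group), 3 had a highest or lowest library set far apart from the other 4, by the size of its gap against the whole range. Chance alone gives 3, about 1 set in 20. All 3 were in ALDHbr 1. Itga1 was at 257.8 CPM there, while the remaining ALDHbr libraries had 125.1 to 145.8 CPM (gap 0.844 of the range). Itga8 was at 136.8 CPM against 66.09 to 86.06 CPM (0.718), and Itga9, a subunit that pairs with Itgb1, was at 77.9 CPM against 37.16 to 47.86 CPM (0.737). In the same library smooth muscle and myofibroblast markers summed to 923 CPM, the highest of the 10 libraries. Endothelial markers summed to 1942 CPM and neutrophil markers to 260.3 CPM there, the highest of the ALDHbr group, while ALDHdim 2 had 2011 and 994 CPM. The part of these markers in the values was not tested.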

How the results depend on the processing

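The count of 0 integrin members past the threshold held under each alternative, with a lowest adjusted p of 0.42 (no filter). The count of 0 genes held under each but the omission of the filter. That omission gave 185 genes, of which 182 were higher in ALDHbr, and a median log2 fold change of 0.22 over all genes. At equal depth ALDHbr 3 and ALDHbr 5 detected the most genes (22833 and 21580), and the cause of the 185 was not tested. Of 160 member values under alternatives, 144 kept their direction and 16 changed sign. Itga8 was −0.045 with limma-voom. Without both ALDHbr 3 and ALDHbr 5, Itgav was −0.28, Itgb5 0.018, Itga3 0.093 and Itga5 0.22, and the Itgb8 difference, for which this omission was added after seeing the data, was −0.096 CPM (exact permutation p = 1). The cause was not tested.

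With each library omitted in turn, 0 genes and 0 members passed each time, and the members' median ran from −0.24 to −0.0037. Ranges were −0.12 to 0.17 for Itgav, −0.27 to −0.14 for Itgb1, −0.19 to −0.00055 for Itgb5, −0.40 to −0.14 for Itgb6, −0.42 to 0.13 for Itga1, −0.46 to 0.00096 for Itga3, −0.26 to 0.088 for Itga5 and −0.17 to 0.25 for Itga8. The CPM difference ran from 1.65 to 4.65 for Itgb8 and from 1.116 to 2.54 for Itga11. The exact permutation p of Itga11 was 0.048 without ALDHbr 4, its lowest ALDHbr library, and 0.14 to 0.35 without any other library. Without both ALDHbr 1 and ALDHdim 2, chosen after seeing the data, the median was −0.24 with 0 members past the threshold.

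With the replicate number as a block, 0 genes and 0 members passed and the median was −0.11. Genes at an unadjusted p under 0.05 rose from 402 to 727 of 10844. Itgb6 was −0.29 (unadjusted p = 0.060, adjusted p = 0.74, edgeR), against an unadjusted p of 0.32 in the main fit. Same-numbered libraries deviated together with r of 0.062 to 0.37. ALDHbr 2, 3 and 5 correlated best with the ALDHdim library of their own number, ALDHbr 1 with ALDHdim 2 and ALDHbr 4 with ALDHdim 5. The labels do not say whether the numbers mark pairs, and the main model held the group alone. Counts limit Itgb8 and Itga11 most.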
